A study of Mus musculus with 12 samples.

Results

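The 9 genes described here, Clu, Anxa1, Anxa3, Sprr1a, Sprr2h, Areg, Ereg, Il33 and Ctgf, are known from the gut epithelium during repair, when crypt cells take up parts of a fetal programme. They were chosen by name from the 35688 genes of the deposited table, and their transcripts were summed per gene identifier. The choice was made with earlier results of these data known. The unadjusted p-values below are therefore a description, not tests of genes fixed in advance. The table lists 8 of them under these symbols. The amphiregulin gene Areg was found by its identifier, ENSMUSG00000029378, and its description, since the table gives that row the symbol of another gene, Mcub. RNA was measured in the full wall of the colon at 2 weeks of age. Every mouse lacks Il10, which encodes interleukin 10, a cytokine that restrains inflammation in the gut. The libraries used are from 6 Il10-/- Tnfr1-/- mice, which also lack TNF receptor 1 (gene Tnfrsf1a), and 5 of the 6 Il10-/- mice. The other Il10-/- mouse, replicate 4, had no column that matched its label and was not analysed here. Neither a wild-type nor a Tnfr1-/- colon was among the samples used, so every difference below is between groups that both lack Il10. Strain, sex, litter and the exact alleles are not given in the sources used here.

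After injury, the intestinal lining can suspend its normal stem cell programme and pass through a transient state with genes of the fetal gut. The transcription regulator YAP, the effector of the Hippo pathway, and ligands of the EGF receptor are known drivers of that state in mice, and clusterin marks the rare cells that rebuild crypts. Several of these genes are also made outside the epithelium: Ctgf and Il33 are well known from mesenchymal cells. The tissue here is the full wall of the colon, so a lower value can mean fewer cells of a type or less RNA per cell, and these cannot be told apart.

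The 9 genes did not all lie on one side between the genotypes. In Il10-/- Tnfr1-/- colons the averages of Sprr2h, Anxa3 and, less so, Anxa1 were lower, those of Ereg, Ctgf and Il33 were higher, and Clu, Sprr1a and Areg differed by less than their standard errors. Limma with Benjamini-Hochberg adjustment over all 13561 genes tested called 0 of the 9 genes, against 0.0% of all genes, with adjusted p between 0.536 and 0.921. At an unadjusted limma p under 0.05 there were 3 of the 9 genes, 2 lower (Sprr2h and Anxa3) and 1 higher (Ereg). The same held for 8.34% of all genes tested, 3.6% lower and 4.74% higher. None of the 9 genes separated the genotypes without overlap, while 0.575% of all genes did (0.31% higher and 0.265% lower in Il10-/- Tnfr1-/- colons). All 9 passed the filter on low values, an abundance over 1 in at least 5 libraries. Their median log2 fold change, Il10-/- Tnfr1-/- minus Il10-/-, was -0.25, beside 0.05 over all genes tested. All fold changes here are on the log2(abundance + 0.5) scale, which understates the change of low genes.

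**Figure D1:**
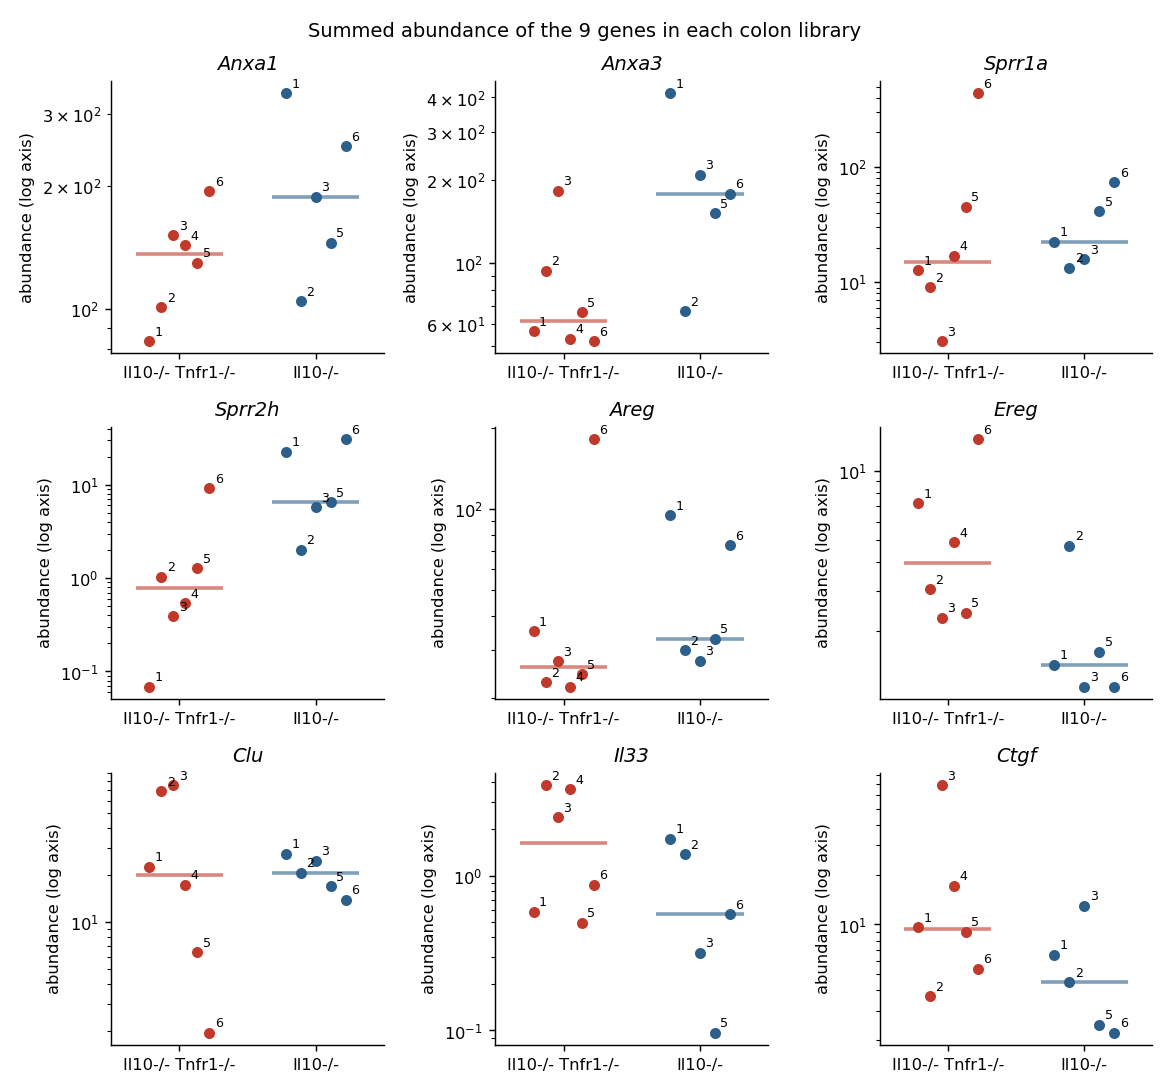
Abundance of each of the 9 genes (log axes) in 6 Il10-/- Tnfr1-/- libraries (left, red) and 5 Il10-/- libraries (right, blue), with the replicate number beside each point and a bar at the group median. Il10-/- Tnfr1-/- replicate 6 stands highest of its group for Sprr1a, Sprr2h, Areg and Ereg and lowest for Clu.

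The labels could be checked on Tnfrsf1a itself, which was between 12.02 and 17.0 in Il10-/- Tnfr1-/- and between 30.6 and 78.1 in Il10-/- libraries. Il10 transcripts remained in both groups (5.14 ± 1.56 in Il10-/- Tnfr1-/- and 15.3 ± 6.44 in Il10-/- colons, SD, n = 6 and 5). They did not overlap, lying between 3.27 and 7.23 in Il10-/- Tnfr1-/- and between 9.06 and 22.9 in Il10-/- libraries. The deleted stretch is given for neither gene, and all mice lack Il10, so these values do not check the Il10 label. Library totals ran from 804109 to 1378971 in the deposited unit, and depth cannot be read from such scaled values, so it is unknown. Tissue makeup varied widely. The summed abundance of 11 epithelial markers ran from 8020 to 25461 in Il10-/- Tnfr1-/- and from 10712 to 23315 in Il10-/- libraries. That of 10 smooth muscle markers ran from 828 to 8010 in Il10-/- Tnfr1-/- and from 184 to 3505 in Il10-/- libraries. Il10-/- Tnfr1-/- replicate 6 was highest of all libraries in the epithelial sum and lowest of its group in the smooth muscle sum. Where leaving it out moves a mean given here by over 1.5 times, the mean without it stands beside the full mean or the single values. The first digit of each sample name (1 to 4) has no stated meaning, and it covers both genotypes only where it is 1, in 2 Il10-/- Tnfr1-/- and 3 Il10-/- mice. An exact test among those cannot give a p below 0.1.

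Small proline-rich proteins are cross-linked into the surface of stressed epithelia, and both family members here lie in the same cluster on chromosome 3. Sprr2h is at chr3:92385685-92387324 on the plus strand of mm10 and Sprr1a at chr3:92483952-92485895 on the minus strand, 96628 bases apart. The 250 bases before each gene's RefSeq start (build GRCm38.p6, the assembly also called mm10) are shown so that the 2 members of this cluster can be compared. The RefSeq start of Sprr1a lies a few bases inside the GENCODE transcript. Capitals mark the AP-1 motif TGANTCA and the TATA box TATAAA, each searched on both strands, and the motifs did not overlap.
Sprr1a, chr3:92485882-92486131, minus strand: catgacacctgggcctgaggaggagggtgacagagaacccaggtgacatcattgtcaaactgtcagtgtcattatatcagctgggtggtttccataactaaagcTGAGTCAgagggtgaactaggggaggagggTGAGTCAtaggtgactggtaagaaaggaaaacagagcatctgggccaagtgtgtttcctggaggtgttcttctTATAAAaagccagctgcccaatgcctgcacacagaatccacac
Sprr2h, chr3:92385435-92385684, plus strand: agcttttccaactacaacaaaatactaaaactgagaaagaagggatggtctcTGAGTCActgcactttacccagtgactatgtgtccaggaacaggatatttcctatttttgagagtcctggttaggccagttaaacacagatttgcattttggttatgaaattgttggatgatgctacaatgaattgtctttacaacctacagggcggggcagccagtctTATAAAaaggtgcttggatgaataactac
Sprr1a had the AP-1 letters in 2 places, starting at -146 and -116 from the start site, and Sprr2h in 1 place, at -198. Over 32536 mouse promoter windows of the same length, 6.73% held the AP-1 letters and 12.3% the TATA letters. The TEAD motif GGAATG, the letters read by the partners of YAP, was in 12.6% of windows and in neither of these. Such matches describe the letters only, and say nothing about what binds there.

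Sprr2h had the largest log2 fold change of the 9 genes. Its abundance was 0.0687, 1.04, 0.391, 0.542, 1.28 and 9.17 in Il10-/- Tnfr1-/- replicates 1 to 6, against 22.7, 2.01, 5.78, 6.48 and 30.8 in Il10-/- replicates 1, 2, 3, 5 and 6. Thus 5 of 6 Il10-/- Tnfr1-/- colons lay below every Il10-/- colon, and only replicate 6 reached into the Il10-/- range. The means were 2.08 ± 3.50 (SD, n = 6) in Il10-/- Tnfr1-/- and 13.6 ± 12.5 (SD, n = 5) in Il10-/- colons, and the Il10-/- Tnfr1-/- mean was 0.665 ± 0.492 (SD, n = 5) without replicate 6. On the log2 scale the difference was -2.62 ± 0.77 (SE), with a two-sided exact permutation p of 0.0195 and a limma adjusted p of 0.536. Leaving out 1 library at a time gave values between -3.15 and -2.195. With 0.1 in place of 0.5 added before the log2 the difference was -3.22, and with 1 it was -2.24. It was -2.16 after adjustment for an epithelial marker score (the mean of the markers' log2 values, each centred over libraries) and -1.75 after adjustment for a smooth muscle score. Within the names beginning with 1 it was -2.93 (exact permutation p = 0.2). In the authors' deposited table the main Sprr2h transcript has a log2 fold of -2.25 and a q-value of 0.684.

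Most of the Sprr2h signal, 78.3%, was on 1 transcript of 752 bases. Of the 722 stretches of 31 bases in that transcript, 2.77% also occur in transcripts of other Sprr2 genes, so a small share of its reads could be split with relatives. Neutrophil markers were also lower on average. The summed abundance of 12 such markers was between 4.89 and 34.0 in Il10-/- Tnfr1-/- and between 20.4 and 263 in Il10-/- libraries, so that the ranges overlapped. Of these, 4 passed the filter, 3 with a lower mean, and Elane was listed at 0 in every library. The calprotectin gene S100a8 was at 3.88 ± 6.08 (SD, n = 6) in Il10-/- Tnfr1-/- and 53.7 ± 68.1 (SD, n = 5) in Il10-/- colons (log2 fold change -3.85; exact permutation p = 0.0108; limma adjusted p = 0.536). The mean of S100a8 was 1.52 ± 2.08 (SD, n = 5) in Il10-/- Tnfr1-/- colons without replicate 2, and 24.6 ± 22.9 (SD, n = 4) in Il10-/- colons without replicate 6. Squamous markers, as anal skin would bring, summed to between 6.37 and 9.24 in Il10-/- Tnfr1-/- and between 9.53 and 16.4 in Il10-/- libraries. Of these 12 markers only Krt14 and Krt10 passed the filter, while Krt5, Trp63 and Dsg3 stayed at or below 0.400 everywhere. The part of either cell type in the Sprr2h difference was not tested.

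Sprr1a spread more widely in Il10-/- Tnfr1-/- than in Il10-/- colons. It was at 12.8, 9.04, 3.09, 17.1, 45.2 and 436.8 in Il10-/- Tnfr1-/- replicates 1 to 6, against 22.5, 13.3, 15.8, 41.5 and 73.7 in Il10-/- colons. The Il10-/- Tnfr1-/- colons held both the lowest and the highest value, a 141-fold range, while the Il10-/- colons covered a 5.53-fold range inside it. The mean was therefore set by 1 animal: it was 87.3 ± 172 (SD, n = 6) with replicate 6 and 17.4 ± 16.3 (SD, n = 5) without it, beside 33.4 ± 25.1 (SD, n = 5) in Il10-/- colons. The log2 fold change was -0.25 ± 0.99 (SE; exact permutation p = 0.838) and, without Il10-/- Tnfr1-/- replicate 6, -1.09, while without replicate 3 it was 0.29. The authors' deposited log2 fold of Sprr1a is 1.00, opposite in sign to the -0.25 found here, with a q-value of 0.737.

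Other genes of the family showed the same animal standing out. Of 16 Sprr genes listed, 6 passed the filter, and all 6 had a lower mean log2 value in Il10-/- Tnfr1-/- colons, with a median log2 fold change of -1.07 against 0.05 over all genes, and all 6 stayed lower under each of 3 other scalings. None was called after adjustment, and only Sprr2h had an unadjusted limma p under 0.05. Sprr2a2 was at 2688, 2527, 4711, 2552, 2093 and 22064 in Il10-/- Tnfr1-/- replicates 1 to 6, against 11680, 2734, 9954, 9772 and 12609 in Il10-/- colons. Here 4 Il10-/- colons formed a high group, and Il10-/- replicate 2 lay with the low Il10-/- Tnfr1-/- colons. Sprr2a1 averaged 419 ± 474 in Il10-/- Tnfr1-/- and 533 ± 250 in Il10-/- colons, Sprr2a3 713 ± 921 and 1108 ± 500, and Sprr2b 3.18 ± 3.69 and 6.996 ± 4.596 in the same groups (SD, n = 6 and 5). Without Il10-/- Tnfr1-/- replicate 6 the Il10-/- Tnfr1-/- means were 2914 ± 1029 for Sprr2a2, 229.7 ± 104 for Sprr2a1, 338 ± 68.7 for Sprr2a3 and 1.69 ± 0.549 for Sprr2b (SD, n = 5). The Sprr2a genes are near-identical copies, so how reads were divided among them is uncertain. Sprr2j-ps, Sprr3 and Sprr4 were listed at 0 in every library.

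**Figure D2:**
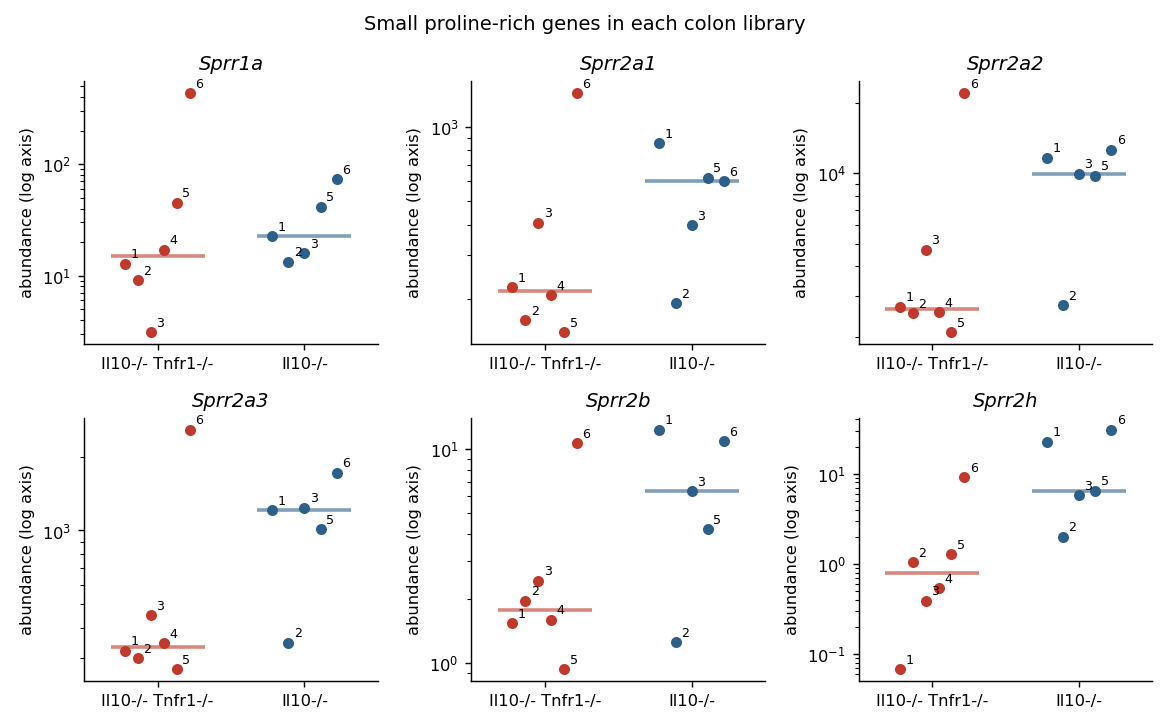
Abundance (log axes) of the 6 small proline-rich genes that passed the filter, in 6 Il10-/- Tnfr1-/- libraries (left) and 5 Il10-/- libraries (right), with replicate numbers and group medians. Il10-/- Tnfr1-/- replicate 6 is highest of its group in every panel, and Il10-/- replicate 2 is the lowest of its own.

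Annexins are calcium-dependent membrane-binding proteins, and Anxa1 is released by damaged or inflamed mucosa, where it acts through formyl peptide receptors. Anxa3 (chr5:96793339-96845966, plus strand) was at 56.5, 93.7, 183, 53.2, 66.2 and 52.1 in Il10-/- Tnfr1-/- replicates 1 to 6, against 414, 66.8, 209.4, 152 and 178 in Il10-/- colons. Of the Il10-/- Tnfr1-/- colons 4 lay below every Il10-/- colon, and replicates 2 and 3 overlapped with them. The means were 84.2 ± 51.0 (SD, n = 6) in Il10-/- Tnfr1-/- and 204.1 ± 129 (SD, n = 5) in Il10-/- colons, a log2 fold change of -1.20 ± 0.44 (SE; exact permutation p = 0.0411; limma adjusted p = 0.536). It lay between -1.55 and -0.89 with any 1 library left out, was -1.29 when adjusted for the epithelial score and -1.42 for the smooth muscle score, and was -1.30 within the names beginning with 1 (exact permutation p = 0.3). The sums of squamous markers, given above, did not overlap between the genotypes. Against the score of Krt14 and Krt10, the 2 of 12 that passed the filter, genotype-centred Anxa3 had Pearson r = 0.77 (permutation p = 0.0140, adjusted 0.109 over 72 relations). Spearman's rho was 0.81 (permutation p = 0.00368, adjusted 0.0754), and r was 0.71 without the 2 libraries of most extreme score. The same score had r = -0.15 with Sprr2h. The part of squamous cells in the Anxa3 difference was not tested.

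The Anxa3 signal was spread over several transcripts. The largest share, 39.5%, was on ENSMUST00000196126.1, a protein-coding model of 2 exons and 453 bases at the 3' end of the gene (chr5:96841998-96845860). It was at 27.6 ± 8.78 (SD, n = 6) in Il10-/- Tnfr1-/- and 87.4 ± 37.2 (SD, n = 5) in Il10-/- colons. The full-length transcript of 13 exons, ENSMUST00000031447.11, carried 28.1% and was at 28.6 ± 15.9 (SD, n = 6) and 51.3 ± 48.1 (SD, n = 5) in the same groups. Without Il10-/- replicate 1 the full-length mean in Il10-/- colons was 30.1 ± 7.87 (SD, n = 4), close to that of the Il10-/- Tnfr1-/- colons. In Il10-/- replicate 1 the full-length transcript was the larger of these (136 against 106), while in Il10-/- replicate 3 the short one was (117 against 26.2). The authors' deposited table gives the short transcript a log2 fold of -1.91 and a p-value of 0.000482, with a q-value of 0.684. Because the models overlap at the 3' end, the division of reads between them is the authors' estimate.

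Anxa1 (chr19:20373428-20390944, minus strand) ran from 83.6 to 194.3 with a median of 136 in Il10-/- Tnfr1-/- colons, against 336, 105, 188, 145 and 250 in Il10-/- colons. The groups overlapped, with 2 of 6 Il10-/- Tnfr1-/- colons below every Il10-/- colon. The means were 134 ± 39.1 (SD, n = 6) in Il10-/- Tnfr1-/- and 205 ± 91.0 (SD, n = 5) in Il10-/- colons, a log2 fold change of -0.55 ± 0.30 (SE; exact permutation p = 0.126). The full-length transcript carried 68.2% of the signal, at 103 ± 33.5 (SD, n = 6) in Il10-/- Tnfr1-/- and 126 ± 106 (SD, n = 5) in Il10-/- colons. The order of these means rested on Il10-/- replicate 1, where this transcript, ENSMUST00000025561.7, was at 315. Without that colon the Il10-/- mean was 79.2 ± 11.3 (SD, n = 4), and the medians over all colons were 104 in Il10-/- Tnfr1-/- and 86.1 in Il10-/- colons. A retained-intron model of 2 exons, ENSMUST00000163902.1, carried 26.1%, at 23.3 ± 18.5 and 67.6 ± 59.8 in the same groups. Of the 3 formyl peptide receptor genes none passed the filter, and their sum stayed at or below 0.783 in Il10-/- Tnfr1-/- and 0.591 in Il10-/- libraries. Of the 11 annexin genes listed in the table, 10 were tested, 5 with a higher and 5 with a lower mean, and 0 were called. Anxa8, which is expressed in fetal-like gut epithelium, was at 34.1 ± 29.0 in Il10-/- Tnfr1-/- and 126.9 ± 145 in Il10-/- colons, with a log2 fold change of -1.73 ± 0.69 (SE; exact permutation p = 0.0519). In Il10-/- replicate 1 it was at 382, and without that colon the Il10-/- mean was 63.1 ± 26.5 (SD, n = 4).

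Areg and Ereg encode amphiregulin and epiregulin, both ligands of the EGF receptor that are cut from the cell surface. They lie 45953 bases apart on chromosome 5, Ereg at chr5:91074622-91093646 and Areg at chr5:91139599-91148432, both on the plus strand. Ereg was at 7.22, 3.05, 2.29, 4.897, 2.41 and 13.8 in Il10-/- Tnfr1-/- replicates 1 to 6, against 1.43, 4.72, 1.14, 1.63 and 1.14 in Il10-/- colons. Apart from Il10-/- replicate 2, every Il10-/- colon lay below every Il10-/- Tnfr1-/- colon. The means were 5.604 ± 4.41 (SD, n = 6) in Il10-/- Tnfr1-/- and 2.01 ± 1.53 (SD, n = 5) in Il10-/- colons, which differed by 1.17 ± 0.45 (SE) on the log2 scale (exact permutation p = 0.0476; limma adjusted p = 0.536). Without Il10-/- replicate 2 the Il10-/- mean was 1.34 ± 0.236 (SD, n = 4). The difference lay between 0.88 and 1.48 with any 1 library left out, and was 1.32 and 1.38 when adjusted for the epithelial and the smooth muscle score. Within the names beginning with 1 it was 1.04 (exact permutation p = 0.3).

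Areg had nearly equal means, and its Il10-/- Tnfr1-/- mean rested on 1 animal. It was at 35.3, 22.8, 27.3, 21.97, 24.5 and 181 in Il10-/- Tnfr1-/- replicates 1 to 6, against 94.7, 30.04, 27.5, 33.1 and 73.2 in Il10-/- colons. The means were 52.2 ± 63.3 (SD, n = 6) in Il10-/- Tnfr1-/- and 51.7 ± 30.5 (SD, n = 5) in Il10-/- colons, with a log2 fold change of -0.33 ± 0.54 (SE; exact permutation p = 0.641). Without Il10-/- Tnfr1-/- replicate 6 the Il10-/- Tnfr1-/- mean was 26.4 ± 5.39 (SD, n = 5) and the log2 fold change -0.79. Adjusted for the smooth muscle score it was 0.19.

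Of the 11 listed ligands of the EGF receptor family, 8 were tested, 5 with a higher and 3 with a lower mean, and 0 were called. After Ereg, the smallest p was that of betacellulin, Btc, at 4.72 ± 2.90 in Il10-/- Tnfr1-/- and 2.92 ± 1.61 in Il10-/- colons (log2 fold change 0.59 ± 0.37, SE; exact permutation p = 0.180). Hbegf and Tgfa had log2 fold changes of -0.19 and 0.30. Among 9 tested genes of the receptors, the sheddases and the feedback inhibitors, none had an unadjusted limma p under 0.05. The feedback inhibitor Errfi1 was at 31.8 ± 13.5 in Il10-/- Tnfr1-/- and 23.0 ± 3.996 in Il10-/- colons (log2 fold change 0.38). Adam10, which like Adam17 was listed as a sheddase, was at 31.8 ± 4.42 and 27.1 ± 12.3 in the same groups (0.32).

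**Figure D3:**
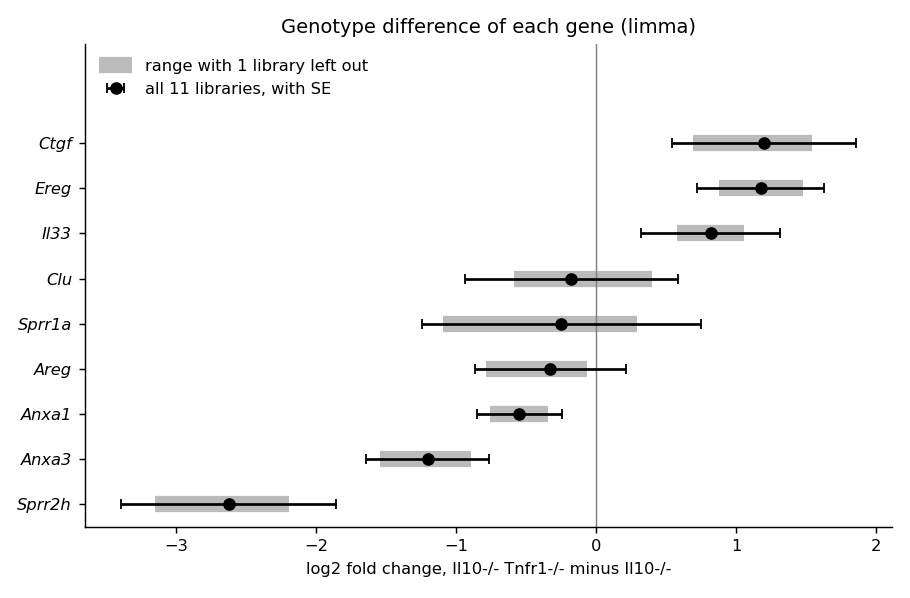
Log2 fold change of each gene, Il10-/- Tnfr1-/- minus Il10-/-, from limma over 11 libraries (points, with SE as bars) and the range when any 1 library was left out (grey). The ranges of Sprr2h, Anxa3, Anxa1 and Areg stay below 0 and those of Ereg, Ctgf and Il33 above 0, while those of Sprr1a and Clu cross it.

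Clu encodes clusterin, a secreted chaperone and the marker of revival stem cells in the mouse intestine. It lies at chr14:65968483-65981547 on the plus strand, and 96.2% of its signal was on 1 transcript. Clu was at 22.7, 69.1, 75.4, 17.3, 6.44 and 1.96 in Il10-/- Tnfr1-/- replicates 1 to 6, against 27.4, 20.7, 24.7, 17.0 and 13.9 in Il10-/- colons. The Il10-/- Tnfr1-/- colons spanned a 38.4-fold range around the Il10-/- colons, which spanned 1.97-fold. Of the 6 Il10-/- Tnfr1-/- colons 2 lay above and 2 below every Il10-/- colon. The means were 32.1 ± 32.004 (SD, n = 6) in Il10-/- Tnfr1-/- and 20.7 ± 5.49 (SD, n = 5) in Il10-/- colons, while the medians were 19.97 and 20.7 in the same groups. The log2 fold change of -0.18 ± 0.76 (SE; exact permutation p = 0.868) was 0.40 without Il10-/- Tnfr1-/- replicate 6 and -0.59 without replicate 3. The authors' deposited log2 fold of the main Clu transcript is 0.63, opposite in sign to the -0.18 found here. Of 4 receptors known to bind clusterin, Lrp8 and Vldlr were tested, with log2 fold changes of -0.02 and 0.54, and neither had an unadjusted limma p under 0.05.

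Il33 encodes an alarmin, a cytokine released from the nuclei of damaged barrier and stromal cells. It lies at chr19:29925114-29960718 on the plus strand and had the lowest median of the 9 genes over all 11 libraries, 0.875. Within the Il10-/- Tnfr1-/- group the median of Sprr2h was lower, 0.791 against 1.62 for Il33. Il33 was at 0.585, 3.85, 2.38, 3.60, 0.497 and 0.875 in Il10-/- Tnfr1-/- replicates 1 to 6, against 1.73, 1.37, 0.317, 0.0970 and 0.563 in Il10-/- colons. Replicates 2, 3 and 4 of the Il10-/- Tnfr1-/- group lay above every Il10-/- colon and the other 3 lay among them. Its log2 fold change was 0.82 ± 0.50 (SE; exact permutation p = 0.167). With values this low it depended on the pseudocount, at 1.19 with 0.1 and 0.62 with 1.

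The gene has separate starts, and the 250 bases before each RefSeq start (GRCm38.p6) are shown because the deposited values divided the Il33 signal by start. Capitals mark the TEAD motif GGAATG and the letters TATAAA on either strand.
Il33 upstream start, chr19:29924863-29925112, plus strand: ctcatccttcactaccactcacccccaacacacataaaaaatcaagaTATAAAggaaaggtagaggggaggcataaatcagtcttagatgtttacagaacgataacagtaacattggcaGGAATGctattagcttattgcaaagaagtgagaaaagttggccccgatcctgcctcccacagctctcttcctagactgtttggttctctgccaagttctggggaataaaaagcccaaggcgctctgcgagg
Il33 downstream start, chr19:29945540-29945789, plus strand: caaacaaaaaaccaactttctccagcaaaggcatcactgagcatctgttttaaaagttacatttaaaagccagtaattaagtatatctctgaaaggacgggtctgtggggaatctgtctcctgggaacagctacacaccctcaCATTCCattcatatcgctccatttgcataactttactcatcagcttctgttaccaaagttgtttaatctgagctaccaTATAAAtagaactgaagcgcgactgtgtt
The TEAD letters start at -131 before the upstream start and at -107 before the downstream start. The letters TATAAA start at -203 before the upstream start and at -29 before the downstream start, so their places differ. Of the transcripts from the upstream start, ENSMUST00000120388.8 carried 57.6% of the signal and ENSMUST00000144528.7, a short model of 377 bases, 16.6%. ENSMUST00000025724.8, from the downstream start, carried 25.8%. The downstream transcript was at 3.18 in Il10-/- Tnfr1-/- replicate 2 and 0.781 in replicate 4, and at or below 0.0600 in the other 9 libraries. In Il10-/- Tnfr1-/- replicate 2 ENSMUST00000120388.8 was at 9.46e-07, or practically absent from the estimate. The short transcript from the same upstream start was at 0.671 there, so the values do not show a loss of that start. The receptor gene Il1rl1 was at 3.07 ± 2.79 (SD, n = 6) in Il10-/- Tnfr1-/- and 1.68 ± 0.936 (SD, n = 5) in Il10-/- colons (log2 fold change 0.44), and its partner Il1rap at 1.89 ± 0.812 and 1.18 ± 0.718 in the same groups (0.56).

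Ctgf encodes connective tissue growth factor, a matrix-associated protein whose gene is a standard target of YAP and its TEAD partners. It lies at chr10:24595442-24598683 on the plus strand. It was at 9.63, 3.70, 69.4, 17.1, 9.05 and 5.40 in Il10-/- Tnfr1-/- replicates 1 to 6, against 6.56, 4.50, 13.002, 2.49 and 2.23 in Il10-/- colons. Only Il10-/- Tnfr1-/- replicates 3 and 4 lay above every Il10-/- colon. The means were 19.0 ± 25.1 (SD, n = 6) with replicate 3 and 8.98 ± 5.17 (SD, n = 5) without it, beside 5.75 ± 4.41 (SD, n = 5) in Il10-/- colons. The log2 fold change of 1.20 ± 0.65 (SE; exact permutation p = 0.141) was 0.69 without replicate 3. It was -0.13 when adjusted for the smooth muscle score and -0.26 within the names beginning with 1 (exact permutation p = 0.8).

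Of the 8 marker scores set against Ctgf, that of smooth muscle was the only one whose r passed adjustment. Its genotype-centred log2 values correlated with the smooth muscle score over 11 libraries with Pearson r = 0.88 (permutation p = 0.00013; 0.00936 adjusted over 72 relations). Spearman's rho was 0.94 (permutation p = 0.00021, adjusted 0.0151), and r was 0.87 without the 2 libraries farthest from the median of the score. Against the endothelial score r was 0.80 (permutation p = 0.00612, adjusted 0.101; rho = 0.74), and 0.75 without 2 libraries. Against the fibroblast score r was 0.75 (permutation p = 0.0109, adjusted 0.109; rho = 0.84), and 0.83 without 2 libraries. It ran against the epithelial score with r = -0.69 (permutation p = 0.0491, adjusted 0.211; rho = -0.82), and -0.83 without 2 libraries. Smooth muscle markers themselves were higher on average in Il10-/- Tnfr1-/- colons in all 10 genes, beside 55.5% of all genes tested. An unadjusted limma p under 0.05 held for 9 of these markers, while 4.74% of all genes tested were higher at that p. Among them Actg2 was at 1118 ± 982 (SD, n = 6) in Il10-/- Tnfr1-/- and 277 ± 391 (SD, n = 5) in Il10-/- colons, and the Il10-/- mean was 105.5 ± 84.1 (SD, n = 4) without replicate 3.

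Of 25 listed YAP and TEAD targets, Ctgf included, 22 were tested, 17 with a higher and 5 with a lower mean. Their median log2 fold change was 0.48, against 0.05 over all genes tested. Under 3 other scalings between 15 and 19 of them had a higher mean. None was called, and 2 had an unadjusted limma p under 0.05, both higher, as had 4.74% of all genes tested. With median-ratio size factors and with quantile normalization, 1 target was lower at that p beside 2 higher. Crim1, a transmembrane regulator of growth factors, was at 6.25 ± 1.13 (SD, n = 6) in Il10-/- Tnfr1-/- and 3.03 ± 1.42 (SD, n = 5) in Il10-/- colons (log2 fold change 1.01 ± 0.26, SE; exact permutation p = 0.00649). Lats2, a Hippo kinase induced by YAP as feedback, was at 5.88 ± 2.24 and 2.91 ± 1.14 in the same groups (0.90 ± 0.29, SE; exact permutation p = 0.0173). Of 15 Hippo pathway genes, 14 had a higher mean (13 to 15 under other scalings), and only Lats2 an unadjusted limma p under 0.05. Cyr61, the close relative of Ctgf in the CCN family, was at 10.6 ± 12.1 and 5.13 ± 2.01 in the same groups (0.58), and at 5.73 ± 1.88 (SD, n = 5) in Il10-/- Tnfr1-/- colons without replicate 3.

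Over all genes tested, 7521 of 13561 (55.5%) had a higher mean in Il10-/- Tnfr1-/- colons. All 8 fibroblast markers did, with a median log2 fold change of 0.80. An unadjusted limma p under 0.05 held for 2 of these 8, while 4.74% of all genes tested were higher at that p. Their sum ran from 211 to 1649 in Il10-/- Tnfr1-/- and from 57.5 to 401 in Il10-/- libraries. Of 7 endothelial markers 6 had a higher mean (median 0.64), with sums between 20.4 and 87.1 in Il10-/- Tnfr1-/- and between 20.6 and 60.3 in Il10-/- libraries. Of the enteric glia markers all 5 tested did (median 0.97), with sums between 5.71 and 39.2 in Il10-/- Tnfr1-/- and between 1.21 and 33.7 in Il10-/- libraries. Beyond the score adjustment and correlations given above for Ctgf, the part of muscle, fibroblasts, vessels and glia in the values of Ctgf, the YAP targets and the Hippo genes was not tested.

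Of the 36 pairs among the 9 genes, 1 passed adjustment across colons by Pearson r and 0 by Spearman rho. Correlations used log2 values centred within genotype over 11 libraries, with permutation within genotype and adjustment over all pairs. Values of a library share its scaling and its tissue makeup. The pair that passed was Clu and Sprr1a, with r = -0.93 (permutation p = 0.00013, adjusted 0.00468) and rho = -0.87 (permutation p = 0.00274, adjusted 0.0533). Without the 2 libraries farthest from the median of Clu, Il10-/- Tnfr1-/- replicates 3 and 6, r was -0.77. The colon with the highest Sprr1a had the lowest Clu (436.8 and 1.96), and the colon with the lowest Sprr1a had the highest Clu (3.09 and 75.4), both Il10-/- Tnfr1-/-.

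**Figure D4:**
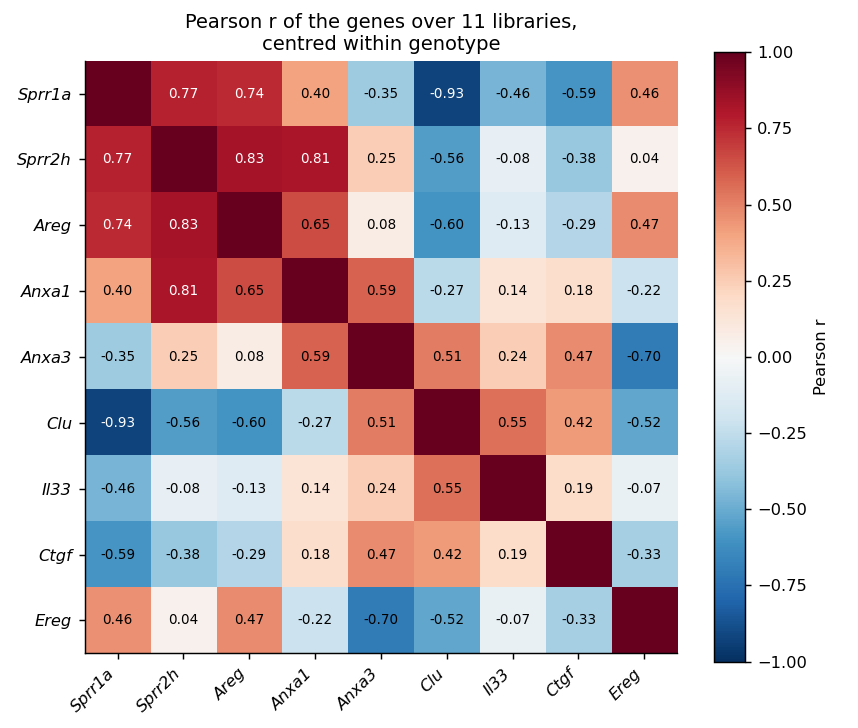
Pearson r between each pair of the 9 genes over 11 libraries, with log2 values centred within genotype (red positive, blue negative). The cell for Clu and Sprr1a, at -0.93, is the only one that passed adjustment. The other cells are a description.

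The other pairs did not pass adjustment. Among Sprr1a, Sprr2h, Areg and Anxa1, r lay between 0.40 and 0.83. Anxa1 and Sprr2h had r = 0.81 (permutation p = 0.00503, adjusted 0.0905, rho = 0.74), and 0.75 without Il10-/- replicates 1 and 2. Clu had r = -0.60 with Areg, -0.56 with Sprr2h and -0.27 with Anxa1, with adjusted permutation p of 0.292, 0.268 and 0.566. Without Il10-/- Tnfr1-/- replicates 3 and 6 these were -0.07, -0.13 and -0.17, so the first 2 rest on those libraries. Sprr2h correlated with Areg at r = 0.83 (permutation p = 0.0155, adjusted 0.139; rho = 0.52), and 0.55 without Il10-/- Tnfr1-/- replicate 6 and Il10-/- replicate 6. Sprr1a and Sprr2h had r = 0.77 (permutation p = 0.00773, adjusted 0.0928; rho = 0.78), and 0.62 without Il10-/- Tnfr1-/- replicates 3 and 6. Sprr1a and Areg had r = 0.74 (permutation p = 0.0407, adjusted 0.209), and 0.37 without the same libraries. Anxa3 and Ereg, which lay on opposite sides between the genotypes, also ran opposite within them, with r = -0.70 (permutation p = 0.0204, adjusted 0.147; rho = -0.84). The 2 neighbouring ligand genes Areg and Ereg had r = 0.47 (permutation p = 0.162, adjusted 0.364).

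Sprr1a also varied with epithelial markers. Against the score of 11 epithelial markers it had r = 0.92 (permutation p = 0.00108, adjusted 0.0283 over 72 relations) and rho = 0.78 (permutation p = 0.0105, adjusted 0.127), with r = 0.73 without the 2 libraries of most extreme score. Clu ran against that score with r = -0.76 (permutation p = 0.0151, adjusted 0.109; rho = -0.68), and r was -0.47 without the same libraries. Ereg ran against the score of the 2 squamous markers that passed the filter (r = -0.80, permutation p = 0.00118, adjusted 0.0283; rho = -0.72), but r was -0.40 without Il10-/- Tnfr1-/- replicate 6 and Il10-/- replicate 2, on which the relation rests. The relations of Ctgf, Sprr1a and Ereg given here were the 3 of 72 whose r passed adjustment. Against the epithelial score, Anxa3 and Anxa1 had r = -0.27 and 0.33 (adjusted p = 0.612 and 0.530 by permutation). Crypt stem cell genes had a higher mean in Il10-/- Tnfr1-/- colons in 9 of 10 tested genes (7 to 10 under other scalings), none with an unadjusted limma p under 0.05. Those of smallest p were Cdk6, a cell cycle kinase (log2 fold change 0.49; exact permutation p = 0.0519), and Sox4, a progenitor transcription factor (0.65; exact permutation p = 0.106). Their score ran against Sprr1a (r = -0.83, permutation p = 0.00698, adjusted 0.101; -0.45 without 2 libraries) and along with Clu (r = 0.64, permutation p = 0.0750, adjusted 0.231; -0.04 without 2 libraries).

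**Figure D5:**
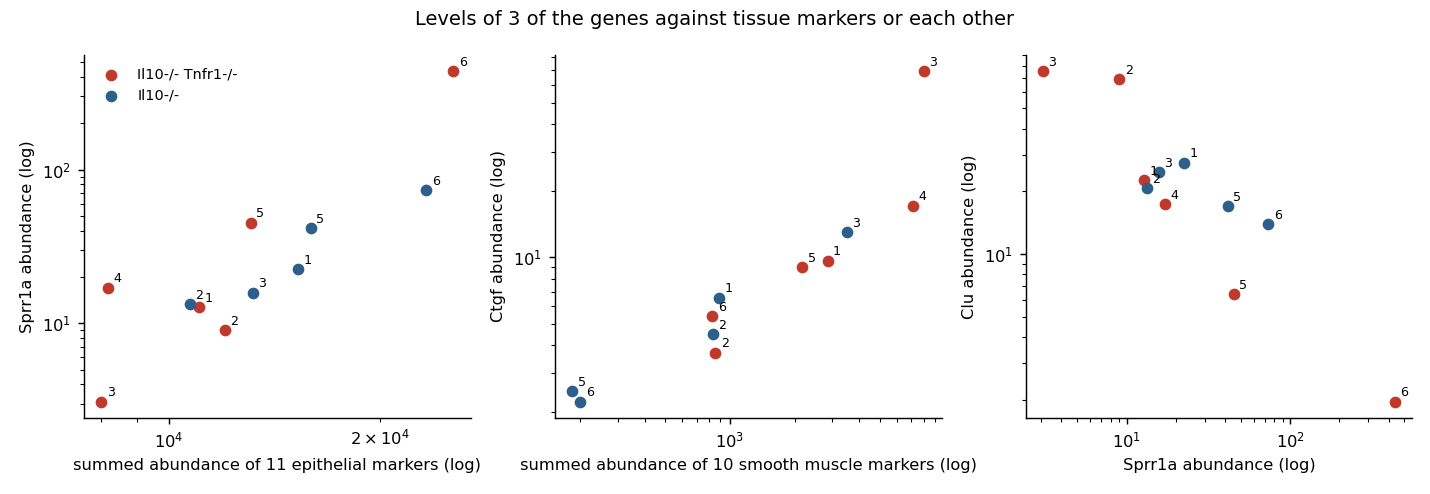
From left to right, Sprr1a against the summed epithelial markers, Ctgf against the summed smooth muscle markers, and Clu against Sprr1a, in abundance units on log axes, for 6 Il10-/- Tnfr1-/- (red) and 5 Il10-/- (blue) libraries with replicate numbers. Sprr1a and Ctgf climb with their tissue markers in both genotypes, and Clu declines as Sprr1a climbs.

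The genes whose pattern was most like each of the 9, among 12439 candidates and over 11 libraries, were named by the same centred Pearson r, as a description. For Sprr1a they were Krt20 (0.97), a keratin of mature surface epithelium and one of the epithelial markers used above, Pdss2 (0.97) and Tmem150b (0.97). For Sprr2h they were Prss27 (0.97), Leprotl1 (0.97) and Map2k3 (0.96), and for Areg Myo1e (0.97), Dock5 (0.97) and Rhpn2 (0.96). Those of Anxa3 were Adgrf1 (0.94), Unc119 (0.94) and the epithelial sodium channel subunit gene Scnn1a (0.93), and those of Anxa1 were Dnajb14 (0.96), Lamtor3 (0.96) and Ccdc85c (0.95). Clu was followed by Ggh (0.94), the antimicrobial ribonuclease gene Ang4 (0.93) and Kdsr (0.93). Ereg was followed by Atp2b1 (0.93), Fbxl5 (0.93) and Prkaa1 (0.92), and Il33 by Bcas2 (0.91), Spcs2 (0.88) and Fancm (0.88). Ctgf was followed by the smooth muscle genes Chrm2 (0.96) and Kcnmb1 (0.95), a muscarinic receptor and a potassium channel subunit, and by Frzb (0.94).

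Among 29 other listed genes of the fetal-like or regenerating gut epithelium, 25 were tested, 13 with a higher and 12 with a lower mean, and 0 were called. At an unadjusted limma p under 0.05 there were 3 higher and 4 lower, beside 4.74% higher and 3.6% lower among all genes tested. The genes with values below, Ly6a and Ly6d, are both lower ones, while the 3 higher ones are not described here. Ly6a encodes the fetal gut surface antigen Sca-1. It was at 97.3, 312, 86.1, 53.0, 88.3 and 587 in Il10-/- Tnfr1-/- replicates 1 to 6, against 1865, 129, 514, 441 and 1312 in Il10-/- colons. Il10-/- replicate 2 was again low for its group and Il10-/- Tnfr1-/- replicate 6 high for its own. The log2 fold change of Ly6a was -2.08 ± 0.74 (SE; exact permutation p = 0.0455), and that of Ly6d was -3.17 ± 1.04 (SE; exact permutation p = 0.0368), with a limma adjusted p of 0.536 for each.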

How the data were processed

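Whole-colon RNA from 12 mice was read as stranded mRNA libraries with single-end reads, per the labels' protocols. CASAVA, kallisto and sleuth and the build mm10 appear in the submitters' processing notes, with no version or setting. For each transcript the deposited table holds an abundance signal, never negative and scaled by the authors in a way the headers do not name. The authors' deposited mean, on a natural log scale, less the log abundance rose with log transcript length. The slope was 1.18 (22783 transcripts), so levels are about per length. The authors' p-value, q-value and log2 fold columns, per the file headers, are quoted only as theirs. Of the per-sample columns, 11 matched a sample's label, and 1 matched none and was not used.

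After dropping 866 repeated rows, 113193 transcripts were summed to 35688 genes, 98.1% of whose identifiers matched GENCODE M21, the source of symbols and coordinates. The 13561 genes above 1 in 5 or more libraries were fitted as log2(value + 0.5) with limma 3.58.1 in R 4.3.3 (trend and robust moderation; Benjamini-Hochberg, threshold 0.05), after a test on simulated data. Single values were tested by exact two-sided permutation of the mean log2 difference (smallest p 0.00216), and correlations by 100000 permutations (scipy 1.17.1, numpy 2.4.6). No list was tested as a set. Named genes follow a rule: the 9 genes, for each the 3 others of nearest pattern (mean value of at least 1, no predicted symbol), the 2 of smallest p in each related list, and Tnfrsf1a; further genes were named for their role or after their values were seen. Alternatives covered the pseudocount, filter, scaling, moderation, covariates and each library left out. Members and lists were chosen with earlier results of these data known. Replicates are separate mice per the series' design text, and their numbers pair nothing.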

Additional observations from a re-analysis of the deposited data

Results flagged for a closer look

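For each of the 9 genes, the highest and lowest library of each genotype were compared with the rest of their group, in 18 groups in all. A library was singled out where its gap to the nearest other, as a share of the group's range, exceeded the 95% critical value of Dixon's test. Abundances were used here, not log2 values. The critical value is passed in about 1 of 20 groups for normally distributed values. Right-skewed abundances can pass it more often, so the count below cannot be set against that rate. A library was singled out in 6 groups, each time as the highest. Il10-/- Tnfr1-/- replicate 6 stood apart in 3 of them: Sprr1a was at 436.8 there, next to 45.2, Areg at 181 next to 35.3, and Sprr2h at 9.17 next to 1.28. Il10-/- Tnfr1-/- replicate 3 was at 183 for Anxa3, next to 93.7, and at 69.4 for Ctgf, next to 17.1. That library also had the highest smooth muscle sum, 8010. Il10-/- replicate 2 was at 4.72 for Ereg, next to 1.63. Whether tissue makeup has a part in these values was not tested.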

How the results depend on the processing

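Of 206 values of the 9 genes under alternative settings, 193 kept their direction and stayed above the adjusted threshold, and 13 changed direction. Sprr2h, Anxa3, Anxa1, Ereg and Il33 kept theirs in every alternative run that gave a value. Without 1 library, Sprr1a lay between -1.09 and 0.29 and Clu between -0.59 and 0.40. Clu was 0.71 and Ctgf -0.26 both within the names beginning with 1 and with that digit as covariate. Adjusted for the smooth muscle score, Sprr1a was 1.09, Areg 0.19 and Ctgf -0.13, and for the epithelial score Sprr1a was 0.46. An unadjusted limma p under 0.05 held in 22 of 23 alternatives for Sprr2h, 21 for Anxa3 and 17 for Ereg. The cause was not tested. Il33 failed a filter of 6 libraries, so that setting gave it no value.

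Limma called 0 genes with all libraries (1131 at an unadjusted p under 0.05), 1 with quantile normalization, and 0 to 2 without 1 library, where the unadjusted count ran from 482 (without Il10-/- replicate 6) to 2458 (without Il10-/- replicate 1), with 1727 without Il10-/- replicate 2. That count was 142 within the names beginning with 1, 243 with the first digit as covariate and 616 when adjusted for the smooth muscle score. Of those genes 56.9% were higher, against 75.1% with equal totals, 40.3% with median-ratio size factors and 41.3% with quantile normalization. Equal totals moved the median of all genes from 0.05 to 0.19, and Sprr2h, Anxa3 and Ereg were then -2.51, -1.06 and 1.28. The genotypes did not overlap for 78 genes, 130 without the filter, 33 with equal totals, 2002 within the names beginning with 1, and 88 to 336 without 1 library. No paired analysis was possible because the replicate numbers follow accession order and pair no mice. Depth is unknown, and values under about 1 (Il33, and Sprr2h in Il10-/- Tnfr1-/- colons) are the least certain.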

Other observations

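Emp1, an epithelial membrane protein gene of the regenerating gut list, was at 265, 181, 74.5, 332, 271 and 2399 in Il10-/- Tnfr1-/- replicates 1 to 6, against 93.4, 257, 153, 241 and 147 in Il10-/- colons. As with Sprr1a and Areg, the high value is that of Il10-/- Tnfr1-/- replicate 6. Gene symbols in the deposited table need care: 900 of 35022 gene identifiers carry another symbol than GENCODE M21 gives them, newer symbols among them. The symbol Mcub stands on 2 identifiers, that of Mcub and that of Areg, so that a search for Areg by symbol finds no row.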
